A study of Mus musculus with 469 samples.

Results

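Cxcr4 encodes a chemokine receptor of the cell surface, and its RNA was followed in single cells of the mouse olfactory epithelium. It was chosen for its known place in olfactory neuron precursors, and it is 1 of 23281 gene entries that were analysed. Its level was taken as CPM, the gene's value per 1000000 of the cell's sum over all genes. A cell with a CPM of 10 or more for a gene is said to have that gene, or the gene is said to be found in it.

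CXCR4 is a G protein-coupled receptor whose main ligand is CXCL12, and the pair guides migrating cells and growing axons in many tissues. CXCL12 is also bound by a scavenger receptor, named Ackr3 today and Cxcr7 in the files, which removes the ligand, and CXCR4 is a receptor for the cytokine MIF as well. The olfactory epithelium makes neurons throughout life: globose basal cells divide, their daughters express the transcription factors Neurog1 and then Neurod1, immature neurons carry the growth protein Gap43, and mature neurons carry the olfactory marker protein Omp. Cutting out the olfactory bulb, the target of these neurons, kills mature neurons and is followed by a wave of new ones.

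All animals were labelled as 8 weeks old, and cells were captured with the Fluidigm C1 system. The Neurog1-eGFP cells came from strain FVB Neurog1-eGFP and were sorted for eGFP in 3 states: uninjured, 5 days after bulbectomy and 14 days after it. The OMP-eGFP cells came from strain B6 OMP-eGFP in 2 states, 14 days after bulbectomy and engrafted, which the labels give as olfactory epithelium following transplantation. The reference was uninjured, unsorted tissue of wild-type B6;129SF1/J (F1) animals in 2 runs. Strain therefore moved with the sort and cannot be told apart from it in any comparison between the Neurog1, OMP and reference groups. The labels named no animal, so every group counts as 1 sample. No difference has a replicate check, and no p-value was computed. The 95% intervals are exact Clopper-Pearson intervals and cover only the counting of cells. Fragments are PCR products without molecular identifiers, so they are not independent molecules.

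Libraries that passed a filter of 1000 or more genes are called cells below. They were 46 of 61, 48 of 51 and 25 of 26 libraries of the uninjured, 5 day and 14 day Neurog1 sorts, 42 of 50 and 29 of 89 of the 14 day and engrafted OMP sorts, and 68 and 70 of the 96 libraries in each reference run. Depth, recovered from the smallest step between values in a cell, ran from 13369 to 2186037 fragments per cell, with group medians of 501827 to 1347936. The labels were set against the 4 marker genes. Neurog1 was found in 44.5% of the cells of the 3 Neurog1 sorts together, in no cell of the OMP sorts and in 4.35% of reference cells. It was found in 0 reference cells once libraries of more than 10000 genes were left out. Omp was found in 41 of 42 and 22 of 29 cells of the 14 day and engrafted OMP sorts, and also in 43.7% of the Neurog1-sorted cells (58.7% of the uninjured ones), so the Neurog1-sorted cells differed in which of the markers they had. In the reference, 9 libraries of run 1 had more than 10000 genes each and stood apart from the rest. In library order their Omp levels ran 9950, 10092 and 9831 CPM, then 5080, 5105 and 5229 CPM, then 3796, 3878 and 3846 CPM. Whether these libraries are single cells was not tested. They are counted among the reference cells unless stated otherwise. In the 5 day Neurog1 sort, 2 libraries had 6 or more of 9 markers of sustentacular cells, the supporting cells of the epithelium. The share in the reference, its difference from the uninjured Neurog1 sort and its ligand, scavenger receptor and pathway values are also given without the 9 libraries, and the share and difference of the 5 day sort without the 2.

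The stretch upstream of the gene is shown because Neurog1 and Neurod1, the genes it is set against below, encode factors that bind E boxes. It holds the 250 bases before the annotated start of Cxcr4, on the minus strand of chr1:128592300-128592549 (RefSeq, GRCm38.p6), written 5′ to 3′. Capitals mark a TATA motif next to the start and the palindrome GCGCATGCGC, which reads the same on both strands.
Cxcr4 promoter: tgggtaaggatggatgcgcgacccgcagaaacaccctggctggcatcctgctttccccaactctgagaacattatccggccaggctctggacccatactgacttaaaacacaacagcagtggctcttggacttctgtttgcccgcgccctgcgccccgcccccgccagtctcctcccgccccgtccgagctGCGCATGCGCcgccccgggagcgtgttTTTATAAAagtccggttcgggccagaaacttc
The motif TATAAA, read on both strands, matched 2 times with overlap, at 32 and 30 bases before the start, and 12.4% of 32851 promoter windows of the same length held it. The window held 2 palindromes of 10 letters and none longer, of which 1 overlapped the TATA motif. The marked palindrome lay 59 bases before the start and occurred in 0.782% of windows. The motif GGGCGG matched 3 times, between 95 and 50 bases before the start, against 32.7% of windows with a match. The E box letters CANNTG did not occur in this window, and 66.2% of windows held them, which is a statement about these letters only. The window was 61.2% G and C. No other gene of the GENCODE M21 annotation overlapped Cxcr4. The files themselves use build mm9, for which no sequence was read.

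Cxcr4 was found most often in the Neurog1-eGFP sorts. Over the 3 sorts it was found in 58 of their cells (48.7%, 95% interval 39.5 to 58.1%), with a mean of 94.9 CPM. In the uninjured sort it ranged from 0 to 717 CPM with a median of 23, and 24 of 46 cells had it (52.2%, 36.9 to 67.1%). At 5 days it ranged from 0 to 596 CPM with a median of 1.57, and 19 of 48 cells had it (39.6%, 25.8 to 54.7%). At 14 days it ranged from 0 to 862 CPM with a median of 27.1, and 15 of 25 cells had it (60%, 38.7 to 78.9%). The 3 intervals overlapped. Among cells with the gene, the median level was 167.3 CPM at 5 days, 124.1 CPM at 14 days and 118.7 CPM uninjured.

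Cxcr4 was listed at 0 in each of the 42 OMP-eGFP cells taken 14 days after bulbectomy, which allows a share of up to 7.14% by the limit of 3 cells in 42, or 8.41% by the exact interval. This group had the highest median depth, at 1347936 fragments, and its cells together held 0 Cxcr4 fragments among 51397483. The Neurog1 sort of the same day held 3451 among 27307189.

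The engrafted OMP-eGFP cells had Cxcr4 in 1 of 29 (3.45%, 0.0873 to 17.8%). That cell held 44 Cxcr4 fragments, or 90.3 CPM, and the other 28 were at 0. It had Gap43 at 870 CPM and Omp at 4.10 CPM, under the limit for found, and it was at 0 for Neurog1 and Neurod1. It had 8 of 10 markers of immature neurons and 2 of 11 of mature neurons. Engrafted cells were shallower than the 14 day OMP cells, with a median of 501827 fragments.

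In the unsorted reference 18 cells had Cxcr4 (13%, 7.92 to 19.8%), with a median of 0, a highest value of 580 CPM and a mean of 13 CPM. The runs were alike in share but not in level. Run 1 had it in 10 of 68 cells (14.7%) with a mean of 3.24 and a highest value of 34.6 CPM, while run 2 had it in 8 of 70 (11.4%) with a mean of 22.5 CPM, or 14.4 CPM without its highest cell. All 4 reference cells at 100 CPM or more were from run 2. The libraries with more than 10000 genes made up 6 of the 18 cells, at no more than 30.3 CPM, and without them the share was 12 of 129 (9.30%, 4.90 to 15.7%).

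**Figure D1:**
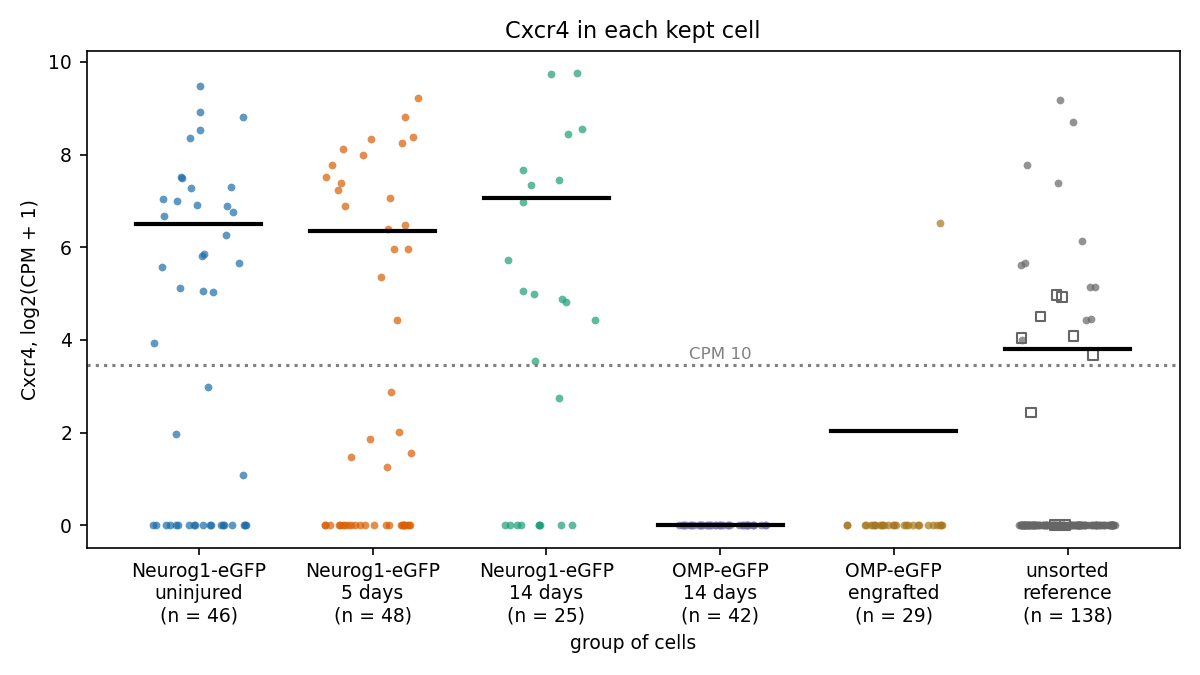
Cxcr4 in each cell on a log2(CPM + 1) axis, by group; points are cells, open squares are the reference libraries with more than 10000 genes, black lines are log2(mean CPM + 1) and the dotted line is a CPM of 10. Points above the line fill the 3 Neurog1-eGFP sorts (24 of 46, 19 of 48 and 15 of 25), are absent from the 14 day OMP-eGFP sort, and number 1 of 29 in the engrafted cells and 18 in the reference (13%).

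In order of share, the groups ran from Neurog1 at 14 days through Neurog1 uninjured, Neurog1 at 5 days, the reference and the engrafted cells to the OMP sort at 14 days. The mean CPM gave the same order: 132.02, 89.6, 80.7, 13, 3.11 and 0. The intervals of neighbours overlapped at each step but 1, that between the 5 day Neurog1 sort (from 25.8%) and the reference (to 19.8%). The gap at that step was of levels as well as shares: at a limit of 50 CPM the 3 Neurog1 sorts had 36%, 39.1% and 35.4% of cells with the gene in that order, and the reference had 3.62%. When every cell was thinned to 200000 fragments, the shares were 66.7%, 56.8%, 39.6%, 11.8%, 4.17% and 0%, in the same order. Thinning left out 1, 2, 0, 19, 5 and 0 shallower cells of these groups.

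The uninjured Neurog1 sort and the reference had means of 89.6 and 13 CPM, a difference of 2.69 in log2(mean CPM + 1), or of 2.70 without the libraries of more than 10000 genes. In that comparison 22.4% of 11061 genes were at least 2-fold higher, and the median of all genes was -0.16. With run 1 as the only reference the difference was 4.42, with run 2, whose mean rested partly on 1 cell, it was 1.95, and as a ratio of summed fragments it was 1.97. The sum gives deep cells more weight.

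Across the injury series the differences stayed under 2-fold. The 5 day sort differed from the uninjured sort by -0.15 on the log2 scale, or by -0.09 without the 2 libraries rich in sustentacular markers. The 14 day sort differed from the uninjured sort by 0.55 and from the 5 day sort by 0.70. In these 3 comparisons 20.9%, 22% and 23.8% of all genes were at least 2-fold higher, and 26.3%, 29.9% and 27.1% were at least 2-fold lower. The mean at 14 days rested on few cells: the 2 highest cells held 51.8% of the summed CPM, against 29.1% in the uninjured sort and 27% at 5 days. Without the highest cell in each sort, the means were 101.6, 75.7 and 69.7 CPM for 14 days, uninjured and 5 days. Without the 2 sustentacular-rich libraries the 5 day sort had Cxcr4 in 19 of 46 cells (41.3%).

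Cxcr4 was found with Neurog1, the first factor of neuronal commitment, more often than without it. In the uninjured sort it was in 17 of 23 cells with Neurog1 (73.9%, 51.6 to 89.8%) and in 7 of 23 without (30.4%, 13.2 to 52.9%). At 5 days the counts were 11 of 18 with and 8 of 30 without. At 14 days, 8 of 12 with Neurog1 and 7 of 13 without had Cxcr4, so the shares were nearer there. Over the 3 sorts this was 36 of 53 (67.9%, 53.7 to 80.1%) against 22 of 66 (33.3%, 22.2 to 46%), and the mean Cxcr4 level was 143.02 against 56.3 CPM.

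Neurod1, which follows Neurog1, gave the same direction in each sort. Cells with it had Cxcr4 in 7 of 11 in the uninjured sort, 8 of 12 at 5 days and 6 of 6 at 14 days. Cells without it had Cxcr4 in 17 of 35, 11 of 36 and 9 of 19. Over the sorts this was 21 of 29 (72.4%, 52.8 to 87.3%) against 37 of 90 (41.1%, 30.8 to 52%). These pooled intervals were barely apart, and in each single sort the intervals overlapped. At 5 days, for instance, they were 34.9 to 90.1% with Neurod1 and 16.3 to 48.1% without.

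Gap43, the growth protein of immature neurons, went the other way. With Gap43, Cxcr4 was in 8 of 24 cells of the uninjured sort (33.3%), 10 of 35 at 5 days (28.6%) and 9 of 18 at 14 days (50%). Without Gap43 it was in 16 of 22 (72.7%), 9 of 13 (69.2%) and 6 of 7 (85.7%). Over the sorts the shares were 35.1% of 77 cells with Gap43 (24.5 to 46.8%) and 73.8% of 42 cells without (58 to 86.1%), and the mean Cxcr4 level was 49.4 against 178.3 CPM. At a limit of 1 CPM for both genes the share with Gap43 was 48.2%.

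Omp, the protein of mature neurons, was set apart from Cxcr4 most in the uninjured sort. There 9 of 27 cells with Omp (33.3%) and 15 of 19 without (78.9%, 54.4 to 93.9%) had Cxcr4. After bulbectomy the shares were nearer, at 6 of 17 with and 13 of 31 without at 5 days, and 4 of 8 with and 11 of 17 without at 14 days. Whether the uninjured sort differs from the injured ones in this was not tested.

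**Figure D2:**
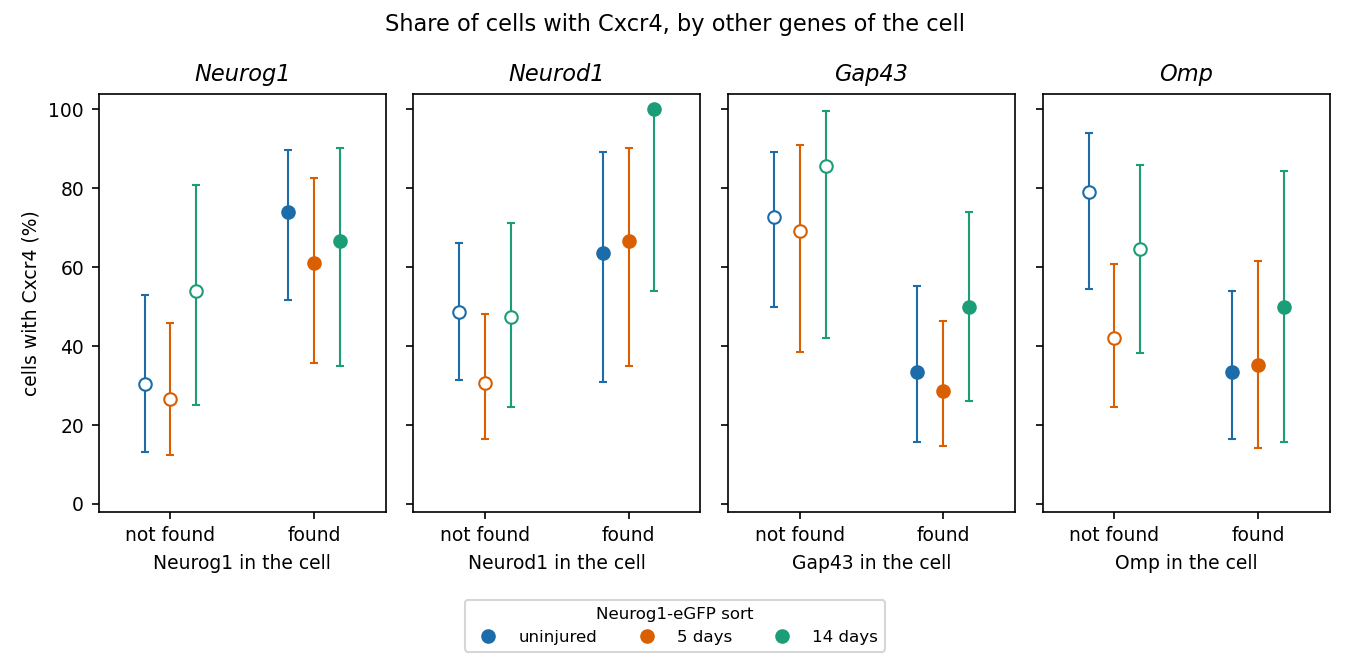
Share of cells with Cxcr4 (percent, with exact 95% intervals) among cells in which Neurog1, Neurod1, Gap43 or Omp was not found (open circles) or found (filled circles), for the uninjured, 5 day and 14 day Neurog1-eGFP sorts. The filled circles lie above the open ones of their sort for Neurog1 and Neurod1 and below them for Gap43 and Omp, and the 14 day sort had the fewest cells (25).

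Cells were then placed by the combination of the 4 genes. This grouping was chosen after the combinations had been counted, so it describes these cells. Of the cells with both Neurog1 and Neurod1 and without Gap43, 16 of 17 had Cxcr4 (94.1%, 71.3 to 99.9%). With Neurog1 alone among the 4 genes it was in 8 of 9. With Neurod1 alone it was in 1 of 3, and with Neurod1 and Omp alone in 0 of 1. In cells with Neurog1 and no Neurod1, adding Gap43 went with a lower share. Neurog1 and Gap43, with neither Neurod1 nor Omp, gave 5 of 11, and Neurog1, Gap43 and Omp without Neurod1 gave 2 of 9. In the few cells with Neurod1 and no Neurog1 the share was not lower with Gap43. Neurod1 and Gap43 alone gave 1 of 2, and Neurod1, Gap43 and Omp gave 1 of 2.

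Grouped more coarsely, cells with Neurog1 or Neurod1 and no Gap43 had Cxcr4 in 14 of 17, 8 of 9 and 6 of 7 for the uninjured, 5 day and 14 day sorts. Over the sorts this was 28 of 33 (84.8%, 68.1 to 94.9%), with a median of 153.1 CPM. Cells with Neurog1 or Neurod1 and also Gap43 had it in 4 of 10, 4 of 12 and 3 of 6, or 11 of 28 in all (39.3%, 21.5 to 59.4%), with a median of 0. Cells with Gap43 and neither factor had it in 4 of 14, 6 of 23 and 6 of 12, or 16 of 49 in all (32.7%, 19.9 to 47.5%), with a mean of 42.6 CPM. The first class stood above the other two in each sort. Median depths of the 3 classes were 921598, 986920 and 1109768 fragments, so of these 3 the class with the most Cxcr4 was the least deeply sequenced.

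**Figure D3:**
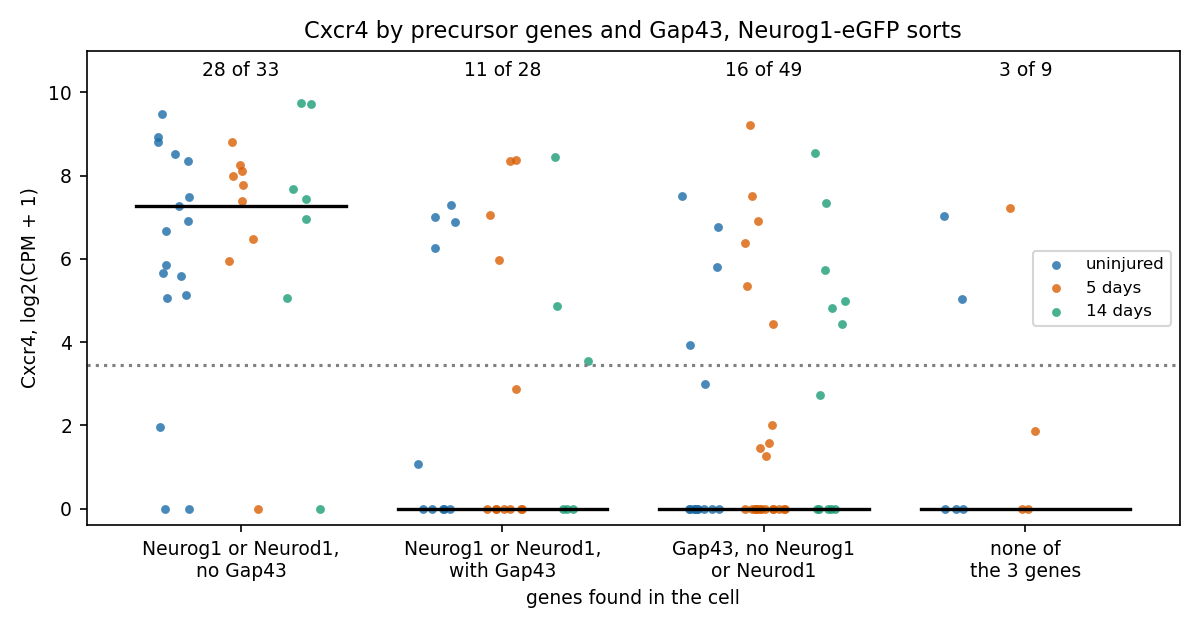
Cxcr4 on a log2(CPM + 1) axis in the cells of the 3 Neurog1-eGFP sorts, by whether Neurog1 or Neurod1 and Gap43 were found; points are cells coloured by sort, black lines are medians, the dotted line is a CPM of 10 and the counts above are cells with Cxcr4. Cells with a precursor factor and no Gap43 had it in 28 of 33, against 11 of 28, 16 of 49 and 3 of 9 in the other classes, whose medians are 0.

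Cells in which the same markers were found differed between sorts in Cxcr4, though the levels of the markers were not matched. Of the cells with Gap43 and Omp and neither factor, 8 of 28 in the Neurog1 sorts had Cxcr4 (28.6%, 13.2 to 48.7%) at a median depth of 778158 fragments. In the OMP sort at 14 days 0 of 35 such cells had it, which allows up to 8.57% by the limit of 3 cells in 35, or 10% by the exact interval, at 1357592 fragments. Of 8 engrafted cells 0 had it. The Neurog1-sorted cells pooled 3 injury states, and their counts were 3 of 12 in the uninjured sort, 2 of 10 in the 5 day sort and 3 of 6 in the 14 day sort, the day shared with the OMP cells. Those 6 cells had Omp at 24.3 to 732 CPM, and the whole OMP sort at 14 days had a median of 660 CPM. The eGFP gate and the strain, and for the pooled cells the injury state, moved with this difference and cannot be told apart in it. Whether the level of Omp had a part in it was not tested.

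In the reference, Cxcr4 with Neurog1 was seen in 6 of 6 libraries, but all 6 had more than 10000 genes and markers of several cell types. Each of those 6 had all 11 markers of mature and all 10 of immature neurons, and they may not be single cells. In the other 129 reference cells Neurog1 was not found, and Cxcr4 was in 2 of 3 cells with Neurod1, 4 of 29 with Gap43 and 9 of those with Omp (7.83%). Of the 12 Cxcr4 cells among these, 8 had 3 or more of 7 markers of neuronal precursors (66.7%), against 15 of the cells without Cxcr4 (12.8%). Sustentacular markers were also common, with 3 or more of 9 in 11 of the 12 (91.7%) and in 93 cells without Cxcr4 (79.5%). Cxcr4 is also a gene of leukocytes, so immune markers were counted: 1 of the 12 cells had 3 or more of 13, with 8 found. Ptprc, the marker of all leukocytes, was found in 1 of the 12.

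In the Neurog1 sorts no cell had Ptprc, and no Cxcr4 cell had more than 1 of the 13 immune markers, whose summed level was 0 to 111.5 CPM with a median of 0. Their sustentacular markers summed to a median of 2.35 CPM (0 to 930) in cells with Cxcr4 and 9.35 CPM (0 to 48236) in cells without. Markers of horizontal basal cells, the reserve stem cells, summed to at most 1.57 CPM in cells with Cxcr4. Depth was close: Cxcr4 cells had a median of 894645 fragments against 806166 for the others in the uninjured sort, 1100490 against 1189721 at 5 days and 1099227 against 993941 at 14 days.

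Within the Neurog1 sorts marker lists of the stages differed between cells with and without Cxcr4. All 10 markers of mature neurons that were in at least 10% of cells, Omp among them, were found less often in Cxcr4 cells, with a median difference of -13.5 percentage points. Over all 6719 such genes, 3563 were found more often and 3147 less often, and the median was 0.678 points. Rtp1, which helps odorant receptors reach the cell surface, was in 26 of 58 Cxcr4 cells and 44 of 61 others. Cnga2, a subunit of the channel of odour transduction, was in 17 and 36. The mature list summed to a median of 684 CPM (0 to 11893) in Cxcr4 cells and 2445 CPM (0.841 to 39245) in the others.

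Precursor markers were found more often in Cxcr4 cells for 5 of 6 genes, against 3563 of 6719 over all genes. The median was 18.1 points, and 2 of the 5 are Neurog1 and Neurod1. Tex15 was in 45 of 58 Cxcr4 cells and 24 of 61 others, in the same direction in each sort. Lhx2, a homeobox factor of this lineage, was in 57 and 52. The exception was the zinc finger factor Insm1, found in 24 Cxcr4 cells and 33 others. Of globose basal cell markers, 2 were common enough to count, both found more often with Cxcr4: Hes6, a transcription factor of the Hes family, was in 30 and 10 cells, and Ezh2, a histone methyltransferase, in 41 and 30. Kit was in 4 cells, all with Cxcr4, while Lgr5 was in 1.

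Markers of immature neurons were divided, with 6 of 10 higher and 3 lower (median 8.97 points), where 3563 of all 6719 genes were higher and 3147 lower. The G protein subunit Gng8 was in 54 Cxcr4 cells and 47 others, and Marcksl1 was in 46 and 36. Dcx, a microtubule protein of migrating neurons, was in 41 and 50, and Crmp1 in 24 and 37. Gap43 itself was in 27 and 50.

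Cells with genes of cell division were few. In the Neurog1 sorts 7 cells had 3 or more of 16 genes of the G2 and M phases, of which 1 was uninjured, 2 were from 5 days and 4 from 14 days. All 7 had Cxcr4 (100%, 59 to 100%), at 28.4 to 173.7 CPM with a median of 87.9. All 7 also had Neurog1 and Neurod1, and 1 had Gap43. At a limit of 1 CPM, 7 of 9 such cells had Cxcr4, and at 50 CPM 2 of 3. For 3 or more of 14 S phase genes the counts were 12 of 58 Cxcr4 cells and 7 of 61 others. The uninjured sort showed no excess, with 4 of 24 against 4 of 22. At 5 days the counts were 4 of 19 against 3 of 29, and at 14 days 4 of 15 against 0 of 10. Among the S phase genes Tyms, the thymidylate synthase of DNA synthesis, was in 15 Cxcr4 cells and 1 other, while Pcna, the DNA clamp, was in 12 of each.

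Odorant receptors were present in both kinds of cell, at different levels. One or more of 1116 receptor entries reached 50 CPM in 42 of 58 Cxcr4 cells (72.4%) and 51 of 61 others (83.6%). The highest receptor of a cell had a median of 274.8 CPM in Cxcr4 cells and 2612 CPM in others, with 6163 CPM in the OMP sort at 14 days. In the single sorts, the medians were 287.9 against 2387 CPM uninjured, 272.1 against 1178 CPM at 5 days and 180.7 against 7687 CPM at 14 days. The lower receptor level in Cxcr4 cells was thus seen in each sort.

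The genes whose detection was most like that of Cxcr4 were found by the phi coefficient, a correlation of presence and absence over the cells of the 3 Neurog1 sorts. These cells share their sorts and their range of depth, and the values are a description. Over 6309 genes the median phi was 0.01, with a 5th percentile of -0.19 and a 95th of 0.21. Highest was Fgd4, an exchange factor for the GTPase Cdc42, at 0.48: it was in 27 of 58 Cxcr4 cells and 3 of 61 others, with means of 133.5 and 10.6 CPM. By sort its phi was 0.43 for uninjured cells, 0.53 for the 5 day cells and 0.44 for the 14 day cells. Genes were named only where phi had the same sign in all 3 sorts, so that agreement was set by the choice. The 6309 genes were not held to this rule.

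Next were the chromatin protein gene Baz1a at 0.46 (39 and 13 cells), then Crabp1, which binds retinoic acid, at 0.45 (46 and 21 cells, means 640 and 159.7 CPM). Ddah2 (46 and 21 cells), Eef1b2 (43 and 18) and Grp, which encodes gastrin-releasing peptide, also reached 0.45. Grp was in 21 Cxcr4 cells and 1 other. Rpl37a and Nhlh2 followed at 0.43 and Bach2 at 0.42. Nhlh2, a transcription factor of the same helix-loop-helix class as Neurog1, was in 41 and 17 cells with means of 581 and 100.9 CPM, and its phi at 14 days was 0.17. Eef1b2 and Rpl37a encode parts of the translation machinery and have near-identical pseudogene copies, so their values are uncertain.

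Least like Cxcr4 was Cntn4, a cell adhesion protein of axons, at -0.44, in 29 Cxcr4 cells and 55 others. Slc24a2 was at -0.41 (11 and 36 cells) and Snap25, a protein of vesicle release, also at -0.41 (27 and 52). Homer2 was at -0.40 (33 and 56) and the teneurin gene Tenm2 at -0.38 (17 and 41).

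**Figure D4:**
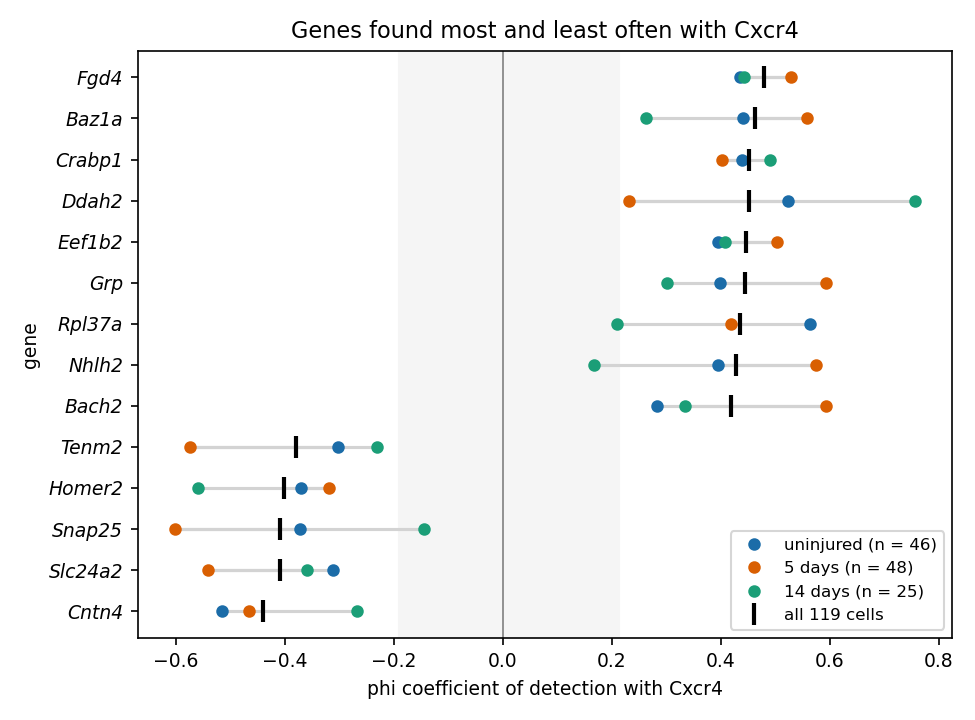
Phi coefficient of detection with Cxcr4 for the 9 most and 5 least alike genes in the Neurog1-eGFP sorts; coloured points are single sorts (46, 48 and 25 cells), black ticks all cells together, and the grey band runs from the 5th to the 95th percentile of 6309 genes (-0.19 to 0.21). Fgd4 is highest at 0.48 and Cntn4 lowest at -0.44, and the points of single sorts spread most for Ddah2 and Snap25. The genes shown were chosen to have phi of the same sign in every sort, a rule not applied to the genes of the band.

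The main ligand was not seen in the sorted cells. Cxcl12 was listed at 0 in all cells of the 5 eGFP sorts, and was found in 10 reference cells (7.25%), at a mean of 18.9 and a highest value of 1743 CPM, in 7 cells of run 1 and 3 of run 2. Without the libraries of more than 10000 genes it was in 5 of 129 (3.88%). The scavenger receptor Cxcr7 was likewise mostly outside the Neurog1 sorts. It was found in 25 reference cells (18.1%, mean 56.9 CPM), or 21 of 129 without those libraries (16.3%), in 1, 0 and 0 cells of the uninjured, 5 day and 14 day Neurog1 sorts, in 2 OMP cells at 14 days and in 0 engrafted cells. The 1 uninjured cell held it at 801 CPM.

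Mif, the other ligand of the receptor, was in 30.4%, 29.2% and 28% of cells of the 3 Neurog1 sorts, 16.7% and 10.3% of the 14 day and engrafted OMP sorts and 26.1% of the reference (20.9% without the libraries of more than 10000 genes). In the Neurog1 sorts it was in 19 Cxcr4 cells and 16 others. Mif has near-identical pseudogene copies, and its values are uncertain. Of 33 chemokine ligands measured, 29 were found in no Neurog1-sorted cell. The exceptions include Ccl27a, in 30.4%, 27.1% and 40% of cells of the 3 sorts, and Cxcl14, in 0%, 8.33% and 4%.

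Among 23 chemokine receptors in the table, Cxcr4 and 1 other were in at least 10% of cells of a Neurog1 sort, and 15 were in no Neurog1-sorted cell. The other was Darc, an atypical receptor that binds chemokines without G protein signalling, in 13% of the uninjured sort, 4.17% at 5 days, 0% at 14 days and 23.8% of the OMP sort at 14 days. Ccr9 was in a single 5 day cell at 1492 CPM and a single 14 day cell at 23.7 CPM.

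Of 36 genes of the CXCL12 and CXCR4 pathway in the table, 20 were in at least 10% of Neurog1-sorted cells. Of these, 13 were found more often with Cxcr4 and 7 less often (median 2.28 points). Over all 6719 such genes the counts were 3563 and 3147 (median 0.678 points). Elmo1, which with Dock proteins activates the GTPase Rac1 in migrating cells, was in 16 of 58 Cxcr4 cells and 2 of 61 others. By sort this was 8 of 24 against 2 of 22 uninjured, 3 of 19 against 0 of 29 at 5 days, and 5 of 15 against 0 of 10 at 14 days. The mean was 86.2 against 2.11 CPM, or 33.5 CPM in Cxcr4 cells without 1 uninjured cell at 3091 CPM. Dock2, the Dock gene on the list, was in 0 of 58 Cxcr4 cells and 0 of 61 others. Pak1, a kinase downstream of Rac1 and Cdc42, was in 20 and 11 cells.

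The shared signalling parts were present with and without the receptor. Gnb1, a G protein beta subunit, was in 55 Cxcr4 cells and 57 others. The inhibitory alpha subunits Gnai2 and Gnai3 were in 6 and 5 and in 7 and 10 cells. Pik3ca, a catalytic subunit of PI3 kinase, was in 33 and 29, Cdc42 in 50 and 47 and Rac1 in 16 and 17. Arrb2, a beta-arrestin that stops the signal, was in 7 and 6, and Itch, the ubiquitin ligase that sends CXCR4 to degradation, in 13 and 17.

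**Figure D5:**
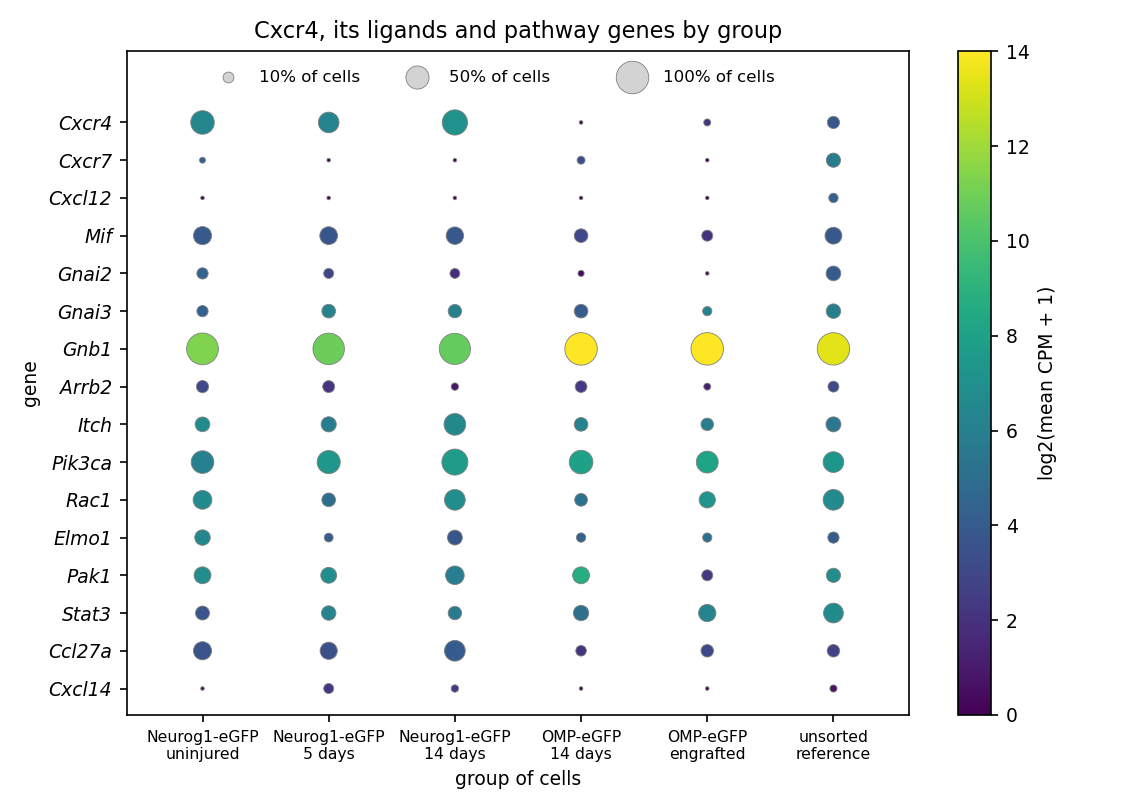
Cxcr4, its ligands, its scavenger receptor and signalling genes by group; dot area is the percent of cells with the gene and colour is log2(mean CPM + 1). Cxcr4 is in 39.6% to 60% of Neurog1-sorted cells, Cxcl12 appears only in the reference among these groups (7.25% of cells), and Gnb1 is in nearly all cells of every group.

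Between groups the pathway list was described by its members with a mean of 5 CPM or more in either group. In the uninjured Neurog1 sort over the reference, 7 of 32 were at least 2-fold higher, where 22.4% of all genes were, and 10 were lower, where 32.6% were. The median was -0.01, against -0.16 for all genes. Without the libraries of more than 10000 genes, 9 of 31 were higher, where 25.8% of all genes were, and 9 lower, where 30.5% were, with a median of 0.24 against -0.05. In the 5 day sort over the uninjured sort 4 of 27 were higher and 10 lower, against 20.9% and 26.3% of all genes, with a median of -0.73 against -0.13. In the 14 day sort over the uninjured sort 5 of 28 were higher and 9 lower, against 22% and 29.9%, with a median of -0.58 against -0.17. These 2 comparisons share the uninjured cells. Stat3, a transcription factor activated by cytokine receptors, was among the higher members in both. Its means were 11.6, 79.1 and 53.7 CPM in the uninjured, 5 day and 14 day sorts. The shares of cells with Stat3 were close, at 17.4%, 18.8% and 16%. Elmo1, among the lower members in both, was in 10 of 46, 3 of 48 and 5 of 25. Its means were 88, 16 and 12.5 CPM, and 1 uninjured cell held it at 3091 CPM.

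In the 14 day sort over the 5 day sort 4 of 23 members were higher and 3 lower, against 23.8% and 27.1% of all genes, with a median of -0.22 against -0.03. In the OMP sort over the Neurog1 sort at 14 days 6 of 23 were higher and 7 lower, against 32.4% and 28.6%, with a median of 0.28 against 0.04. Gnb1 was among the higher, with means of 16374 and 1686 CPM. In the engrafted over the 14 day OMP cells 6 of 22 were higher and 6 lower, against 21.7% and 35%, with a median of -0.22 against -0.34.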

How the data were processed

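Of the 2 tables, the authors deposited one of signal, meaning fragments per gene scaled to a nearly equal total per cell, and one of FPKM. Build mm9 and the tools STAR 2.5.2a, Cuffnorm, Cufflinks 2.2.1 and FastQC are named per the submitters' processing notes, without their roles, and the annotation is not given in the sources used here. Of 23308 entries, 27 had names turned into dates and were left out (0.418% of the signal). The plan had assumed a count table. Values were instead divided by the cell's sum to give CPM, and fragments were recovered from the smallest step between values (tolerance 0.02). A median of 98.5% of a cell's values were whole fragments, as were all 88 Cxcr4 values above 0, of 1 to 934 fragments. A library was kept where at least 1000 genes had a value of at least 1, and the numbers kept are given by group above. At the group medians of 501827 to 1347936 fragments, a CPM of 10 stood for at least 5 fragments. No doublet caller was run.

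Groups were taken from the labels and compared without tests, by shares with exact intervals and by log2 of mean CPM + 1 (genes with a mean of 5 or more in either group), which understates low genes. Named genes were Cxcr4, the 4 markers, members of the marker and pathway lists, and, among genes found in 10% to 90% of Neurog1-sorted cells with phi of one sign in all 3 sorts, the 10 highest and 5 lowest, leaving out odorant receptor, Gm, Rik, Y-linked, Xist and mitochondrial genes; the last of the 10 and 1 marker gene are not reported here. The gene and the lists were chosen with earlier results of these data known. In data simulated from the Neurog1 sorts the step was recovered in every cell (23281 genes). Of 200 genes simulated to follow Cxcr4, 199 were among the 200 with the highest phi that was above 0 in all 3 sorts (of 6277). These genes were simulated to follow Cxcr4 closely, so the recovery of weaker co-detection was not tested. Alternatives were other limits, cell filters, runs, thinning to 200000 fragments, the FPKM table and other pseudocounts. Python 3.11.15, numpy 2.4.6, pandas 2.3.3, scipy 1.17.1 and matplotlib 3.10.9 were used.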

Additional observations from a re-analysis of the deposited data

Results flagged for a closer look

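Libraries under the limit of 1000 genes enter no comparison. Among those of the Neurog1-eGFP sorts, Cxcr4 was found in 2 of 19 (10.5%, 95% interval 1.30 to 33.1%). In the reference it was found in 3 of 54 such libraries (5.56%, 1.16 to 15.4%), so the intervals overlap. The engrafted OMP-eGFP group had it in 2 of 60 such libraries, whose median depth was 4735 fragments. The value is given because it is a signal in data outside the main comparisons.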

How the results depend on the processing

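Alternatives were computed for 30 results, and all but 14 of their values kept their place: shares within the main 95% interval, differences on the same side of 2-fold. None reversed. With a limit of 50 CPM, Cxcr4 was in 36% of cells of the 14 day Neurog1 sort and 3.62% of the reference, and in the Neurog1 sorts in 22.5% of cells with Gap43, 30.5% without Neurod1, 22.5% with Omp and 44.3% without Omp. The share with Gap43 was 48.2% at 1 CPM and 49.4% at 1 fragment, and with Gap43 and a precursor factor 59.6% at 1 fragment. With 2000 or more genes per cell it was 87.5% without Gap43 and 96.4% with a precursor factor and no Gap43. The engrafted share and its log2 difference from the 14 day OMP sort were both 0 without the highest cell, and that difference was 0.39 with a pseudocount of 10. The cause of these shifts was not tested. Alternatives on the reference runs were applied to the reference only. Leaving out the 5 day libraries rich in sustentacular markers, the ratio of summed fragments, the Elmo1 mean without its highest cell and the pathway counts without the libraries of more than 10000 genes were chosen after seeing the data. No paired analysis was possible because no animal is named, each group is 1 sample and the labels' library numbers differ between groups. Precision is limited by the number of cells: at 14 days 25 Neurog1-sorted cells leave an interval of 38.7 to 78.9%.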
